A study of Arabidopsis thaliana with 9 samples.

Results

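Abscisic acid (ABA) is the hormone that plants accumulate under water shortage and in maturing seeds. Its level is set by synthesis from carotenoids against breakdown, and the main breakdown route starts with the 8'-hydroxylases of the CYP707A family, cytochrome P450 enzymes whose product turns into phaseic acid. Receptors of the PYR/PYL family bind the hormone and hold protein phosphatases in check, which frees protein kinases to activate bZIP transcription factors and, through them, dehydration genes.

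The genes described here stand at both ends of this pathway. CYP707A1 (AT4G19230) and CYP707A3 (AT5G45340) encode breakdown enzymes. RD26 (AT4G27410, also ANAC072) encodes a NAC transcription factor whose gene is induced by dehydration and by ABA. MARD1 (AT3G63210) encodes a zinc finger protein that takes its name from ABA-regulated seed dormancy. Each had 1 probe set, so that 4 of 22746 tested probe sets are described.

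Their expression was measured in whole 10-day-old seedlings of the Col-0 accession on 9 Affymetrix ATH1 arrays, 3 biological replicates for each of 3 genotypes. The genotypes were wild type, cyp78a5,7 and amp1-13. The cyp78a5,7 line is a double T-DNA insertion mutant in CYP78A5 and CYP78A7, cytochrome P450 genes of a family other than CYP707A. The amp1-13 line carries a strong mutant allele of AMP1, which encodes a putative carboxypeptidase. Seedlings of all genotypes grew under long days in multi-well plates that held liquid MS medium with sucrose and DMSO, several seeds to a well, so each array holds RNA of pooled plants. Values are signal intensities on a linear scale, and since probe sets differ in how they bind their RNA, levels were compared between genotypes and not between genes.

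The platform annotation named none of the 4 probe sets. All were identified through the gene identifiers of the study's supplementary list of genes changed in cyp78a5,7, and CYP707A3 stood also in the part of the amp1-13 list used here. The members were thus chosen by their values in cyp78a5,7 against wild type, and for CYP707A3 also in amp1-13 against wild type. These values, and those of cyp78a5,7 against amp1-13, which reuse the cyp78a5,7 arrays, are given as a description with no test. The fit's p-value is given for CYP707A1, RD26 and MARD1 in amp1-13 against wild type alone, a comparison that still shares the wild type arrays with the one that chose them. The copy of the amp1-13 list used was incomplete, so whether these genes also stood in the full list is not known.

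The arrays differed in their overall signal. The median over all probe sets was 31.1, 38.92 and 33.59 in wild type, 37.72 to 38.35 over the amp1-13 arrays and 34.39 to 37.06 over those of cyp78a5,7. Wild type arrays 1 and 3 had the brightest upper end, with 99th percentiles of 2063 and 1997 against 1635 to 1779 on the other arrays. Of the mutated genes only CYP78A7 had a named probe set, with signals of 9.465 to 12.74 in wild type, 12.24 to 31.94 in amp1-13 and 21.23 to 37.09 in cyp78a5,7. By RT-PCR the paper detected no CYP78A7 fragment in the cyp78a7 single mutant, but these dim signals were not lower in cyp78a5,7. Where the probes lie relative to the insertion is not given in the sources used here, so the probe set checks no label.

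Both breakdown genes had a higher signal in cyp78a5,7 than in wild type, but they parted in amp1-13. There CYP707A1 overlapped wild type, whereas CYP707A3 had a mean close to that in cyp78a5,7. CYP707A1 gave signals of 56.21, 106.0 and 61.32 on the wild type arrays, 87.8, 94.8 and 109.5 on the amp1-13 arrays and 284.1, 253.4 and 350.2 on the cyp78a5,7 arrays. All cyp78a5,7 arrays lay above all others, and the amp1-13 arrays overlapped those of wild type, of which array 2 was higher than the rest.

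The mean signal of CYP707A1 was 74.52 ± 27.41 (SD, n = 3) in wild type, 97.38 ± 11.09 in amp1-13 and 295.9 ± 49.44 in cyp78a5,7. The cyp78a5,7 mean was 3.971 times that of wild type and 3.039 times that of amp1-13. In the fit, which used quantile-normalized log2 values of the signal plus 16, the difference from wild type was 1.75 (95% interval 1.35 to 2.16). Between the mutants it was 1.48 (1.07 to 1.88). Against wild type amp1-13 differed by 0.28, with an interval of -0.12 to 0.68 and an adjusted p of 0.355 (limma, Benjamini-Hochberg over 22746 probe sets), which did not pass the threshold of 0.05. A fitted difference of 1, which is 2-fold in the signal plus 16, lay outside that interval. For the signal alone, 2-fold is less than 1 on this scale.

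CYP707A3 was the least even of the 4 genes. Its signals were 169.7, 87.21 and 71.76 in wild type, 842.2, 375.9 and 469.4 in amp1-13 and 852.5, 561.0 and 289.4 in cyp78a5,7. Every mutant array lay above every wild type array, and the amp1-13 arrays lay within the range of the cyp78a5,7 arrays. The means were 109.6 ± 52.66 in wild type, 562.5 ± 246.7 in amp1-13 and 567.6 ± 281.6 in cyp78a5,7 (SD, n = 3).

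Within a genotype the brightest array of CYP707A3 exceeded the dimmest 2.365 times in wild type, 2.945 times in cyp78a5,7 and 2.241 times in amp1-13. Array 1 was the brightest of each genotype, at 0.67, 0.74 and 0.65 above the genotype mean on the normalized log2 scale in wild type, cyp78a5,7 and amp1-13. The residual SD of the fit was 0.656 for CYP707A3, larger than that of 98.7% of the 1000 probe sets nearest to it in level, whose median was 0.224. It was 0.238 for CYP707A1, 0.343 for RD26 and 0.213 for MARD1, larger than that of 57.5%, 85.0% and 52.4% of the probe sets nearest in level to each. The spread between arrays was therefore much wider for CYP707A3 than for the other breakdown gene.

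The means of CYP707A3 were 5.181 times that of wild type in cyp78a5,7 and 5.134 times in amp1-13. On the fitted scale the differences were 2.16 (1.14 to 3.18) and 2.22 (1.20 to 3.25). Between the mutants the difference was -0.06, with an interval of -1.09 to 0.96. The interval reaches about 2-fold in either direction, so the data do not show that both mutants held the same level. Leaving out cyp78a5,7 array 1 gave -0.44 and leaving out cyp78a5,7 array 3 gave 0.34.

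**Figure D1:**
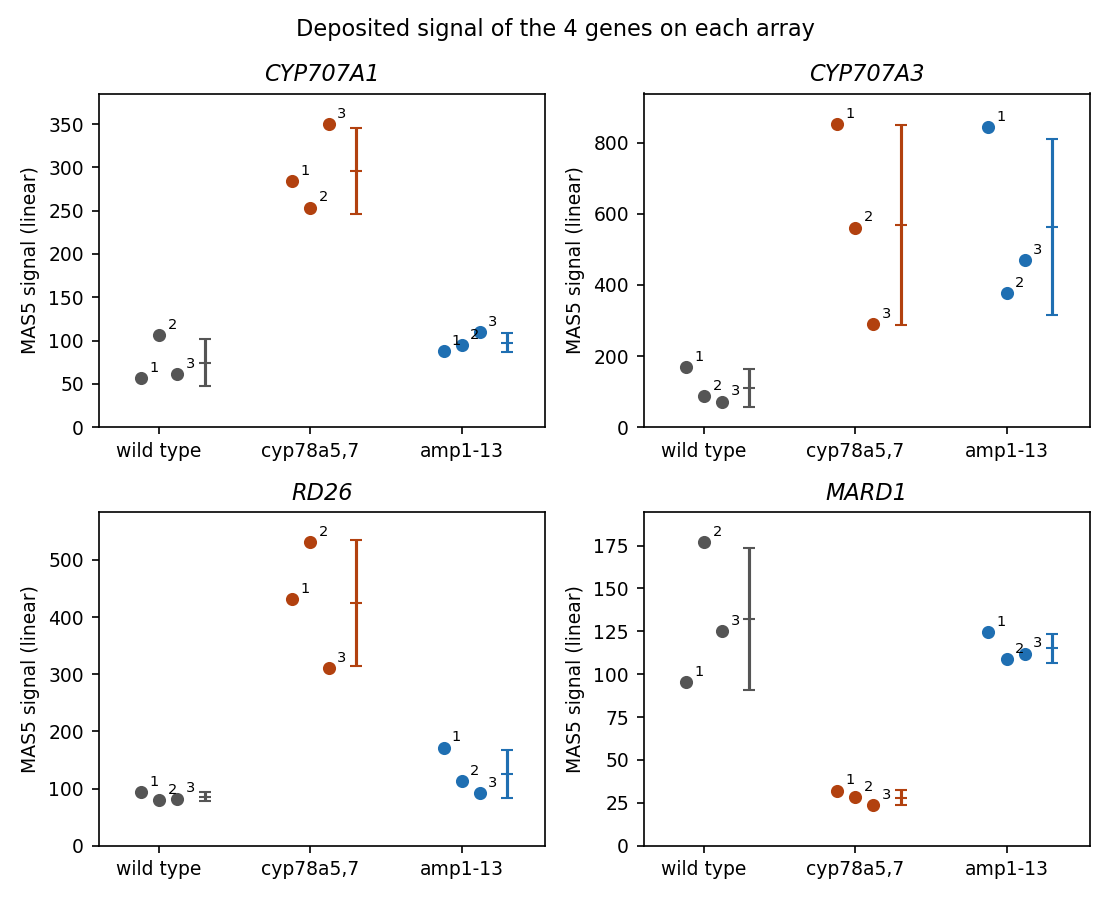
Signal intensity of CYP707A1, CYP707A3, RD26 and MARD1 on each array by genotype, on a linear axis from 0. Points are single arrays marked with their replicate number, and the bars beside them are the mean and SD of 3 arrays. The cyp78a5,7 arrays stand above wild type for the first 3 genes and below it for MARD1, while all amp1-13 arrays stand apart from wild type for CYP707A3 alone.

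Of the response regulators, RD26 was higher in cyp78a5,7 and MARD1 was lower, and each overlapped wild type in amp1-13. RD26 gave 94.26, 79.64 and 82.45 on the wild type arrays, 171.4, 113.3 and 91.71 on the amp1-13 arrays and 431.2, 530.9 and 310.6 on the cyp78a5,7 arrays. The cyp78a5,7 arrays stood clear of all others. Of the amp1-13 arrays, 1 and 2 lay above wild type and array 3 fell within its range.

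The means of RD26 were 85.45 ± 7.757 in wild type, 125.5 ± 41.23 in amp1-13 and 424.2 ± 110.3 in cyp78a5,7 (SD, n = 3). Wild type was the most even genotype for this gene, with a coefficient of variation of 9.078% against 26.01% in cyp78a5,7 and 32.85% in amp1-13. The cyp78a5,7 mean was 4.965 times that of wild type and 3.381 times that of amp1-13, and the fitted differences were 2.05 (1.497 to 2.604) and 1.66 (1.11 to 2.21). The fitted difference of amp1-13 from wild type was 0.39, with an interval of -0.16 to 0.95 and an adjusted p of 0.346 (limma). Without amp1-13 array 1 it was 0.16.

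MARD1 ran the other way. Its signals were 95.23, 176.9 and 125.0 in wild type, 124.4, 108.6 and 112.0 in amp1-13 and 32.06, 28.37 and 23.53 in cyp78a5,7. All cyp78a5,7 arrays lay below all others, and the amp1-13 arrays fell within the range of wild type. The means were 132.4 ± 41.34 in wild type, 115.0 ± 8.311 in amp1-13 and 27.99 ± 4.282 in cyp78a5,7 (SD, n = 3).

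The wild type mean of MARD1 was 4.73 times that of cyp78a5,7, and the amp1-13 mean was 4.11 times it. On the fitted scale cyp78a5,7 differed from wild type by -1.75 (-2.12 to -1.39) and from amp1-13 by -1.54 (-1.91 to -1.17). The offset of 16 shortens these values, because the cyp78a5,7 signals were near it. With no offset they were -2.239 and -2.001, and with an offset of 64 they were -1.10 and -0.94. For amp1-13 against wild type the fitted difference was -0.21, with an interval of -0.58 to 0.15 and an adjusted p of 0.450 (limma). It was -0.37 without wild type array 1 and -0.04 without wild type array 2, the dimmest and the brightest of their genotype.

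**Figure D2:**
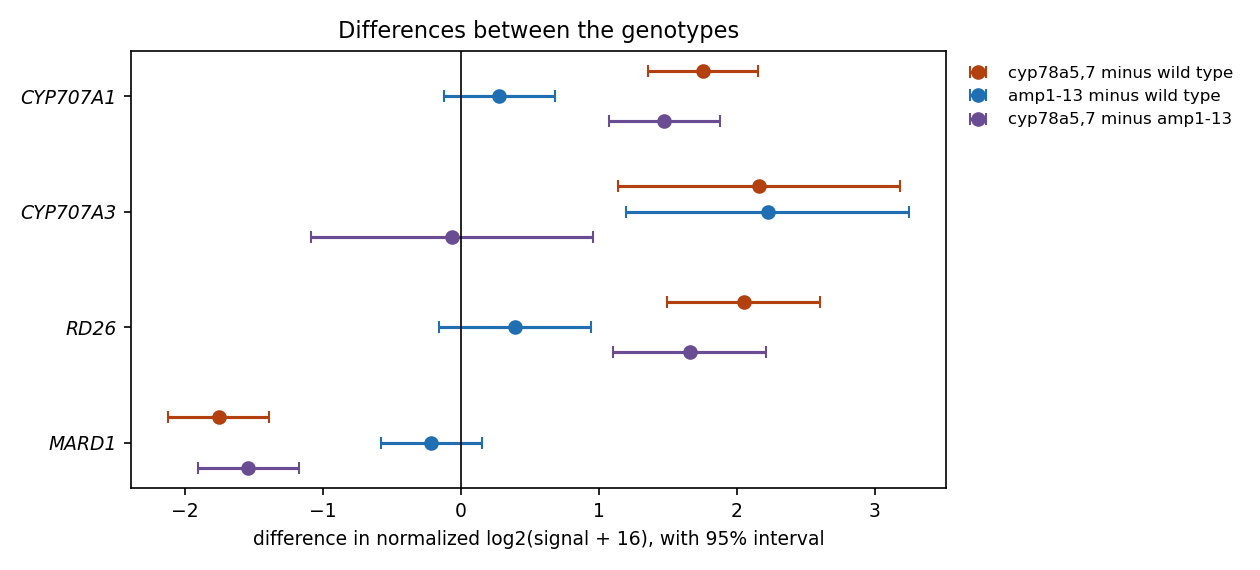
Fitted log2 difference of each member, in cyp78a5,7 against wild type, amp1-13 against wild type and cyp78a5,7 against amp1-13, with 95% intervals from the fit to 9 arrays. The intervals of amp1-13 against wild type include 0 for CYP707A1, RD26 and MARD1, and the interval between the mutants includes 0 for CYP707A3 alone.

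A probe set was called where its adjusted p was under 0.05 and its change at least 2-fold. Here and below, 2-fold is a fitted difference of 1, taken on the signal plus the offset. Dim probe sets can thus differ by more in the signal itself. Over all probe sets, 4.37% were called higher and 2.64% lower in cyp78a5,7 against wild type, 1.8% and 0.796% in amp1-13 against wild type, and 2.15% and 1.76% in cyp78a5,7 against amp1-13. All 4 members had been selected for the first comparison, so their position beside these shares is a description. By size of the fitted difference among 22746 probe sets, CYP707A3 stood 189th, RD26 228th and CYP707A1 339th among the highest in cyp78a5,7 against wild type, and MARD1 stood 74th among the lowest. In amp1-13 against wild type CYP707A3 stood 18th among the highest. None of the 3 members that were tested in amp1-13 was called there, and their adjusted p ranged over the alternatives from 0.0603 to 0.666 for CYP707A1, 0.205 to 0.752 for RD26 and 0.153 to 0.886 for MARD1.

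Across the single arrays the genes kept different orders inside a genotype. CYP707A3 and RD26 were both brightest on amp1-13 array 1 and dimmest on cyp78a5,7 array 3, which was the brightest cyp78a5,7 array for CYP707A1. MARD1 and CYP707A1 were both brightest in wild type on array 2. Leaving out any 1 array moved no member's difference by more than the spread between replicates, in any of the 3 comparisons.

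In RefSeq's TAIR10.1 annotation CYP707A1 lies at 10521259 to 10523961 on chromosome 4 and RD26 at 13707192 to 13709170 on the same chromosome. CYP707A3 lies at 18368532 to 18371021 on chromosome 5, and MARD1 at 23353514 to 23355480 on chromosome 3. The 3 nearest protein-coding genes on each side make 24 neighbours, of which 13 had a named probe set, and none of these was called in any of the 3 comparisons. Over all probe sets, 4.37% were called higher and 2.64% lower in cyp78a5,7 against wild type, the largest shares of the 3 comparisons. At such shares, the absence of calls among 13 probe sets says little about these neighbours. AT4G19220, AT4G19240, AT5G45310, AT5G45320 and AT3G63230 had mean signals under the offset of 16 in every genotype. AT4G27400, 349 bases from RD26, differed by 0.10 in cyp78a5,7 and 0.16 in amp1-13 from wild type on the log2 scale. An annotated gene, AT3G63215, overlaps MARD1 by 350 bases and had no named probe set, so any part of its transcripts in the MARD1 signal was not tested.

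The pathway around the members was only thinly covered. Lists of ABA synthesis, breakdown and conjugation, receptor, phosphatase, kinase, transcription factor and dehydration target genes held 78 genes beside the members, and 20 of them had a named probe set. The platform annotation named 9, which were tested in all comparisons. The lists were chosen with earlier results of these data known, so these tests are not independent of that choice. XERO2 and COR47, named by the annotation, also stood in the study's list of genes changed in cyp78a5,7. The study's list named the other 11, so that these were selected on cyp78a5,7 against wild type as the members were, and their values in the comparisons with cyp78a5,7 are a description. None of the 12 phosphatases and kinases was named.

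Of the 9 genes named by the annotation, 2 were called higher and 0 lower in cyp78a5,7 against wild type, with a median log2 difference of 0.49 against -0.02 over all probe sets. Both are dehydrins, hydrophilic proteins that build up in cells losing water. In amp1-13 against wild type 0 were called higher and 1 lower, with a median of -0.13 against -0.01 over all probe sets. Between the mutants 3 were called higher in cyp78a5,7 and 0 lower, with a median of 0.46 against -0.004 over all probe sets. The genes called were all dehydration targets. Over all probe sets, 4.37% were called higher and 2.64% lower in cyp78a5,7 against wild type and 1.8% and 0.796% in amp1-13 against wild type. Between the mutants the shares were 2.15% and 1.76%. The 1 call in amp1-13 among 9 genes says little beside its share.

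The dehydrin gene XERO2 gave signals of 319.8, 151.9 and 211.0 in wild type, 357.8, 182.0 and 156.2 in amp1-13 and 870.1, 2385 and 3120 in cyp78a5,7. It rose in cyp78a5,7 by 3.11 against wild type (adjusted p = 0.00364, limma) and by 3.12 against amp1-13 (adjusted p = 0.00687). Its difference in amp1-13 against wild type was -0.004 (adjusted p = 0.998). XERO2 thus followed the genotypes as RD26 and CYP707A1 did, with all cyp78a5,7 arrays above all others.

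COR47, another dehydrin gene, gave 1206, 1110 and 1036 in wild type, 1388, 1207 and 964.3 in amp1-13 and 1627, 2898 and 3788 in cyp78a5,7. It rose by 1.44 in cyp78a5,7 against wild type (adjusted p = 0.00937, limma). Its difference between the mutants was 1.22 (adjusted p = 0.0308), and this call was lost without any 1 of wild type arrays 1 and 3, cyp78a5,7 arrays 2 and 3 and amp1-13 arrays 1, 2 and 3, where it ran from 0.93 to 1.35 with adjusted p-values of 0.0501 to 0.112. The amp1-13 arrays overlapped those of wild type.

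COR15A and COR15B encode closely related chloroplast proteins of cold and drought stress, and their probes may share transcripts, so that the signals of the pair are uncertain. COR15B gave 75.23 ± 20.18 in wild type, 19.11 ± 2.88 in amp1-13 and 76.16 ± 26.93 in cyp78a5,7 (SD, n = 3). It fell by 1.43 in amp1-13 against wild type (adjusted p = 0.00856, limma) and was 1.40 higher in cyp78a5,7 than in amp1-13 (adjusted p = 0.00726). Both calls were lost with an offset of 64, with differences of -0.77 and 0.75. COR15A, with signals of 25.7, 60.06 and 215.6 in cyp78a5,7 and 9.129 to 16.84 in wild type, did not pass in cyp78a5,7 against wild type at 1.56 (adjusted p = 0.0568), and passed without cyp78a5,7 array 1 at 2.13 (adjusted p = 0.00797).

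On the fitted scale, the other named genes of the breakdown and conjugation list differed by less than 1 with the offset of 16. UGT71C5, which attaches glucose to ABA, gave 114.9 ± 14.79 in wild type, 123.5 ± 16.9 in amp1-13 and 173.1 ± 17.39 in cyp78a5,7 (SD, n = 3). Its difference in cyp78a5,7 against wild type was 0.49 (adjusted p = 0.019, limma), under 2-fold. UGT71B6, a further ABA glucosyltransferase gene, was dim on every array, at 1.114 to 4.237 in wild type and 10.87 to 13.45 in cyp78a5,7. Its fitted difference was 0.61 (adjusted p = 0.00296, limma), under 2-fold in the signal plus 16. With no offset it passed, at 2.57.

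BGLU33, whose product releases ABA from its glucose ester, differed from wild type by -0.28 in cyp78a5,7 and -0.30 in amp1-13 (adjusted p = 0.469 and 0.48, limma). AT4G27250, another locus of this list, differed by -0.42 and -0.32 (adjusted p = 0.0076 and 0.0381), at signals of 4.367 to 16.24. Its role is not given in the sources used here. With no offset AT4G27250 passed in cyp78a5,7, at -1.22 (adjusted p = 0.00394). Of the breakdown and conjugation list beside the members, which also holds BGLU33 and AT4G27250, 4 of 7 genes were named. With the offset of 16 none of them was called in any comparison. EEL, a bZIP transcription factor gene of the transcription factor list, differed by -0.38 in cyp78a5,7 and -0.18 in amp1-13 from wild type and did not pass.

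Among the 11 genes that the study's list named, 7 were called higher and 3 lower in cyp78a5,7 against wild type, a split that their selection makes a description. With an offset of 64 the split was 4 and 0, since the fitted differences of ABA4, PYL1, PYL9, AFP1, TMAC2 and ANAC055 then fell short of the fold threshold, at -0.88, -0.75, -0.88, 0.54, 0.74 and 0.98. A larger offset shortens the fitted differences of dim genes. Leaving out 1 array, it was 6 to 8 higher and 2 to 3 lower. In amp1-13 against wild type 1 was called higher and 0 lower, with a median log2 difference of -0.03. Between the mutants 5 were called higher in cyp78a5,7 and 0 lower. Over all probe sets, 1.8% were called higher and 0.796% lower in amp1-13 against wild type. Beside them, 1 call among 11 genes says little. The shares were 4.37% and 2.64% in cyp78a5,7 against wild type and 2.15% and 1.76% between the mutants.

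The 3 with lower signals act at the upper end of the pathway. ABA4, needed to make the precursor neoxanthin, had means of 166.0 in wild type, 102.9 in amp1-13 and 60.1 in cyp78a5,7. The receptor gene PYL1 had 149.3, 97.93 and 61.25 in the same order, and the receptor gene PYL9 had 202.6, 112.4 and 83.68. In amp1-13 against wild type their log2 differences were -0.62, -0.54 and -0.81, none past the threshold (adjusted p = 0.0832, 0.125 and 0.0522, limma). The cyp78a5,7 difference of PYL1 was under 2-fold without wild type array 1 (-0.87) and without cyp78a5,7 array 2 (-0.98), and that of PYL9 without cyp78a5,7 array 1 (-0.94). For all 3 genes the amp1-13 mean lay between those of the other genotypes. The wild type arrays on which they were selected also enter the amp1-13 comparison.

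NAC genes related to RD26 did not share 1 pattern. ANAC019 gave 73.76, 43.92 and 38.52 in wild type, 45.24, 56.22 and 57.96 in amp1-13 and 273.9, 335.3 and 255.4 in cyp78a5,7, high in cyp78a5,7 alone as RD26 was. Its difference in amp1-13 against wild type was -0.03 (adjusted p = 0.952, limma). ANAC055 gave 29.15, 30.22 and 25.24 in wild type, 135.6, 87.17 and 66.37 in amp1-13 and 146.4, 157.8 and 70.37 in cyp78a5,7. Both mutants stood above wild type and overlapped each other, as they did for CYP707A3.

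ANAC055 rose by 1.23 in amp1-13 against wild type (adjusted p = 0.0301, limma), a comparison that shares the wild type arrays on which it was selected. The call was lost with an offset of 64, at 0.74, and without any 1 of wild type arrays 1 and 3 and amp1-13 arrays 1 and 2, where the difference was 0.98 to 1.29 with adjusted p-values of 0.0725 to 0.106. ATAF1, a further NAC gene, had means of 88.98 in wild type, 157.6 in amp1-13 and 187.1 in cyp78a5,7, with a difference of 0.69 in amp1-13 against wild type (adjusted p = 0.0197), under 2-fold.

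AFP1 and TMAC2 encode related proteins that dampen ABA responses. AFP1 had means of 18.52 in wild type, 16.29 in amp1-13 and 57.06 in cyp78a5,7, and TMAC2 had 28.5, 50.14 and 93.11. Between amp1-13 and wild type AFP1 differed by -0.17 (adjusted p = 0.439, limma) and TMAC2 by 0.48 (adjusted p = 0.0433, under 2-fold).

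The dehydration genes RD29A, ERD10 and LEA14 were also higher in cyp78a5,7 than in both other genotypes. RD29A gave 110.2, 184.5 and 90.0 in wild type, 85.63, 64.67 and 65.11 in amp1-13 and 663.6, 1693 and 2539 in cyp78a5,7. ERD10 had means of 1456, 4162 and 1497 in wild type, cyp78a5,7 and amp1-13, and LEA14 had 856.3, 2988 and 1052. Their differences in amp1-13 against wild type were -0.76, 0.17 and 0.39 (adjusted p = 0.321, 0.676 and 0.184, limma). RD29A, ERD10, LEA14, COR15A, COR47 and XERO2 all had their lowest cyp78a5,7 signal on array 1 and their highest on array 3, the reverse of the order of CYP707A3.

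The 4 members drew different companions. For each, the probe sets with 1 named gene and a mean normalized log2 value of at least 6 were ordered by Pearson's r to it over the 9 arrays, with 5752 candidates. The r values are a description over arrays that share 3 genotypes, and any gene with a like genotype order scores high. CYP707A1 was closest to MDAR6, a monodehydroascorbate reductase gene (r = 0.990), OBE1, which encodes a PHD finger protein (0.990), CRK28, a receptor-like kinase gene (0.987), and AT5G24810 (0.985). MDAR6 had means of 220.4 in wild type, 274.8 in amp1-13 and 880.0 in cyp78a5,7, the order of CYP707A1.

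CYP707A3 was closest to the zinc finger genes SZF1 (r = 0.987) and STZ (0.982), followed by AT2G41640 and NHL3 (both 0.982). SZF1 gave 265.1, 144.8 and 126.2 in wild type, 1374, 698.2 and 645.4 in amp1-13 and 1894, 1069 and 407.1 in cyp78a5,7. It thus shared with CYP707A3 the bright array 1 of each genotype and the dim cyp78a5,7 array 3, as well as the higher level in both mutants.

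RD26 was closest to AT5G17850 (r = 0.993), AT1G17620 (0.990), AT2G24330 (0.989) and the jasmonate repressor gene JAZ6 (0.988). JAZ6 gave 1150, 1513 and 982.0 in cyp78a5,7, the order of arrays that RD26 had, and means of 216.2 in wild type and 362.0 in amp1-13. MARD1 was closest to AT2G28200 (0.970), AT1G21920 (0.969), UGT72E2, which acts on lignin precursors (0.966), and PPCK1, a phosphoenolpyruvate carboxylase kinase gene (0.963). AT1G21920 had means of 343.5 in wild type, 323.6 in amp1-13 and 75.42 in cyp78a5,7. An r above 0.95 was reached by 92 candidates for RD26, 68 for CYP707A1, 27 for CYP707A3 and 8 for MARD1.

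**Figure D3:**
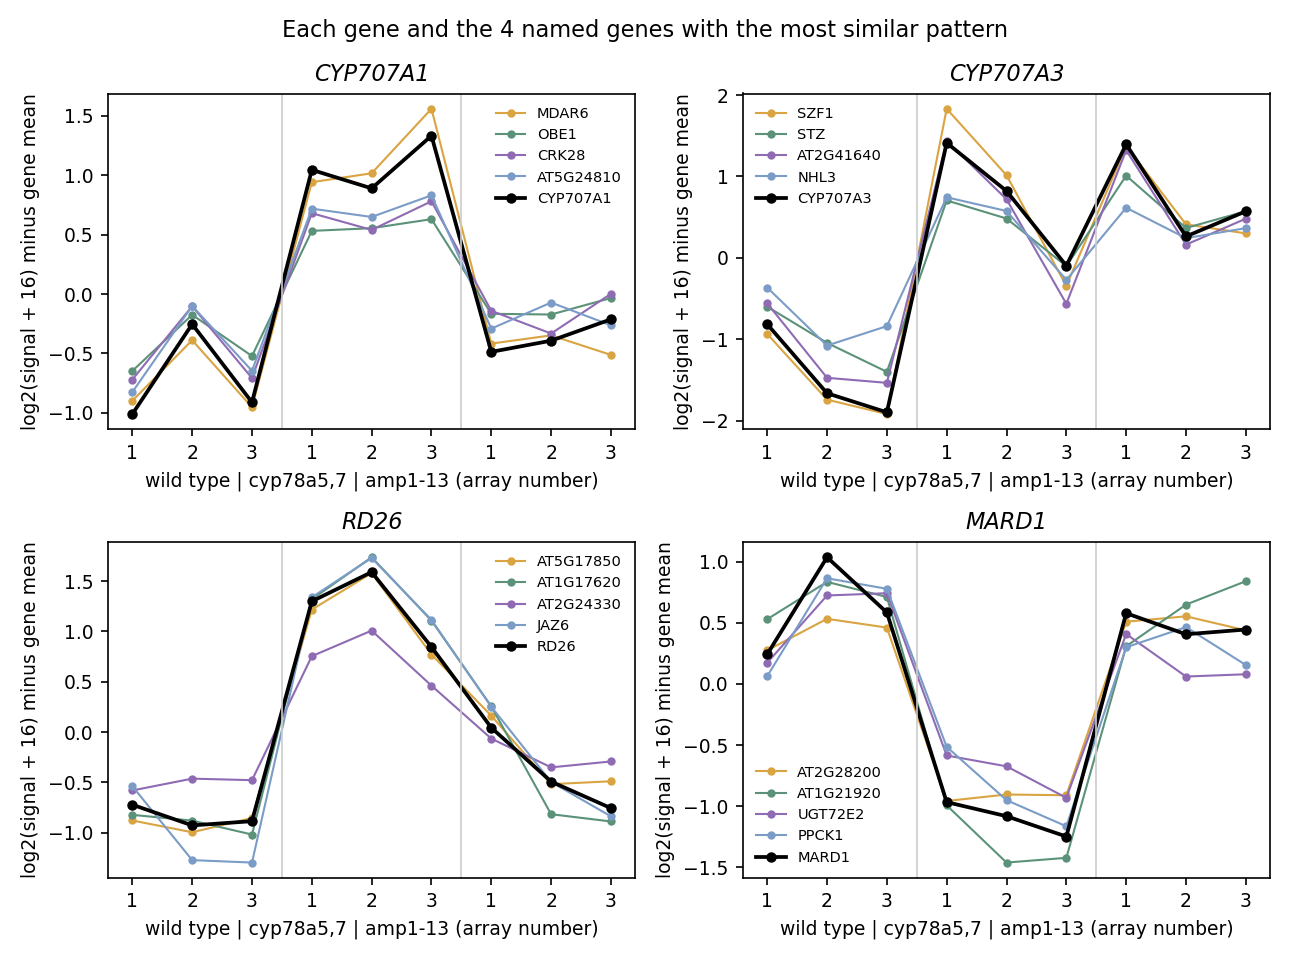
Signals of each member and of the 4 genes most like it on the 9 arrays, as log2 of the signal plus 16 minus each gene's mean over the arrays. Lines join the arrays of a gene only to guide the eye. The genes around CYP707A3 share its bright array 1 of each genotype and its dim cyp78a5,7 array 3, but not all share its full order. Those around RD26 share its order of the cyp78a5,7 arrays. The genes around CYP707A1, RD26 and MARD1 set cyp78a5,7 apart from both other genotypes.

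Marker genes of leaf senescence, a state in which ABA genes are known to be active, differed between the genotypes in more than 1 order. In bulk seedlings fewer cells of a type and less RNA per cell cannot be told apart. Of 8 senescence markers 4 were named, and their summed signal was 808.6 to 2013 in wild type, 2040 to 2328 in amp1-13 and 3249 to 4002 in cyp78a5,7. The sum was mostly SAG21, with means of 1340, 1993 and 3329 in that order. WRKY53, the only one named by the annotation, also stood in the study's list of genes changed in cyp78a5,7. Its difference of 1.98 in cyp78a5,7 from wild type is thus a description. In amp1-13 it differed from wild type by 1.25 (adjusted p = 0.108, limma). The other named markers did not follow the order of the sum. NAP had means of 30.25 in wild type, 62.14 in amp1-13 and 22.13 in cyp78a5,7, and SAG13 had 1.934, 27.62 and 21.4.

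Of 11 root markers 4 were named, with summed signals of 4772 to 5342 in wild type, 4449 to 5024 in amp1-13 and 3745 to 4772 in cyp78a5,7. The sum was mostly PYK10, and hid NRT2.1, a nitrate transporter gene named by the study's list, with means of 28.59, 26.23 and 152.8. On the normalized log2 scale PYK10, EXPA7 and EXPA18, which the annotation named, differed by 0.10, -0.01 and 0.01 in cyp78a5,7 from wild type, and none was called. PYK10 thus changed sign with the scale, since its means as deposited were 4913 in wild type, 4523 in amp1-13 and 4044 in cyp78a5,7. Of 6 green tissue markers 2 were named, CA1 and GLK1, both by the study's list, with sums of 454.5 to 597.5, 1893 to 2319 and 1151 to 1365 in the same order. The sum was mostly CA1, a carbonic anhydrase gene, with means of 377.0, 2042 and 1184, whereas GLK1, a regulator of chloroplast development, ran the other way with 165.0, 60.21 and 62.51. Neither group had a marker at 0. Of 11 seed and embryo markers none was named. The part of organ makeup or senescence in the values of the 4 members was not tested.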

How the data were processed

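Whole Arabidopsis thaliana seedlings of 3 genotypes were measured on 9 Affymetrix ATH1 arrays, 3 for each. The deposited table holds linear signal intensities, which the authors computed in MAS5, scaled per array and without detection calls. The MAS5 version is not given in the sources used here. The study's own analysis normalized the raw arrays with RMA. Those arrays were not analysed here.

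Of 22810 probe sets, 64 controls were left out. An offset of 16 was added, log2 values were quantile normalized over the 9 arrays, and limma 3.58.1 (R 4.3.3) fitted the genotype to all arrays, two-sided, with 6 residual and 2.69 prior degrees of freedom and Benjamini-Hochberg adjustment over 22746 probe sets. Intervals are 95% intervals of the fit. The offset shortens the differences of dim probe sets. Single signals, means and ratios of means are of the values as deposited. Python 3.11.15 with matplotlib 3.10.9 drew the figures.

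The platform annotation gave 1 gene with a locus for 13367 probe sets, 1 gene without a locus for 134 and several for 503. The gene identifiers of the study's list named 832 more, and 7910 had no name. That list held 1897 genes of cyp78a5,7 and 46 of amp1-13 in the copy used. Its fold changes and p-values were not used. RefSeq (TAIR10.1) gave positions, and the array files give no coordinates. Promoter and protein sequences were not used here, and the motif search planned for the promoters was not run.

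The members and the gene lists were chosen with earlier results of these data known. The genes named are the members, the 4 probe sets most like each, and the called genes of the lists, with further list genes given as values. A list of loci whose family could not be read from these sources is not reported.

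The replicate numbers do not pair the arrays by any label. After removal of the genotype means, the correlation was -0.119 to 0.161 between same-numbered arrays and -0.174 to 0.247 between others. The fit was tested on simulated data. The alternatives were no offset, an offset of 64, other scalings, a filter on dim probe sets, fits of the 2 genotypes alone, the replicate block, other variance models, calls without the fold threshold and leaving out each array. The precision is limited by 3 arrays for each genotype.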

Additional observations from a re-analysis of the deposited data

How the results depend on the processing

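Over 216 pairs of a member's difference and an alternative, 209 stayed within the spread between replicates. The other 7 came from a changed offset, and 0 from leaving out an array or from the replicate block. Counts of called probe sets were 1596 in cyp78a5,7 against wild type, 591 in amp1-13 against wild type and 891 between the mutants. They were 2409 in cyp78a5,7 with no offset, 774, 242 and 411 with an offset of 64, and 5409, 2734 and 2643 by the adjusted p alone. Leaving out 1 array gave 1294 to 1975, 326 (without wild type array 3) to 923 (without wild type array 2), and 553 (without amp1-13 array 2) to 1270. In amp1-13 against wild type the count was 389 without amp1-13 array 1 and 383 without amp1-13 array 2.

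Of the 9 annotated genes of the ABA lists, 2, 1 and 3 were called in these comparisons, beside 1596, 591 and 891 of all 22746 probe sets. With no offset 4 were called in cyp78a5,7 against wild type, with an offset of 64 there were 0 in amp1-13 against wild type, and by the adjusted p alone there were 5, 2 and 5. Leaving out 1 array gave 2 to 3, 1 to 1 and 2 to 4. Of 60 differences of the other list genes, 44 were called, or not called, alike under every alternative that kept the fold threshold. The other 16 changed under at least 1 of these, most often with an offset of 64. Calls by the adjusted p alone do not enter this count. With the replicate block, the difference of COR47 between the mutants was 1.22 with an adjusted p of 0.0624 (limma), and it was the only call of a list gene that the block changed. The fit of the 2 genotypes alone gave 1.19 (adjusted p = 0.0739) and no offset gave 1.23 (adjusted p = 0.0656). COR15A in cyp78a5,7 passed after centring on the 75th percentile, without the dimmest 30% of probe sets, with a variance trend and with robust variances. Over 3 scalings, the median difference across probe sets ran from -0.06 to 0.02. Signals under the offset, 34.48% to 38.35% of the probe sets of an array, carry little information on fold changes. The causes of these changes were not tested.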
